A study of Rattus norvegicus with 9 samples.

Results

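pXEN cells of the rat, a stem cell type of the primitive extraembryonic endoderm, were compared between a serum-free medium that holds the Gsk3 inhibitor Chir99021 (CPE) and a traditional serum medium (T). The comparison takes the 3 libraries labelled CPE and the 3 labelled T out of 9 RNA-seq libraries in the series, and it runs across the 17315 genes of the count tables, of which 9130 had enough counts to be tested. All cells were of the line RX1 from the WKY strain, so the values describe 1 line. T cultures grew on plates coated with fibronectin at 100 ng/ml, in a DMEM/MCDB base with LA-BSA, ITS, ascorbic acid and β-mercaptoethanol, to which 2% fetal bovine serum, 0.5 µM dexamethasone and Lif, Pdgf and Egf at 10 ng/ml each had been added. CPE cultures grew on collagen I at 10 µg/ml, without serum, dexamethasone or Lif, in a DMEM/F12 and Neurobasal base with the N2 and B27 supplements and β-mercaptoethanol, plus 1 µM Chir99021 and Pdgf and Egf at 10 ng/ml each. A further 3 libraries, labelled LPE, came from the same coating and base as CPE with 10 ng/ml Lif where CPE had Chir99021, and their values are set beside those of CPE. Serum, dexamethasone, Lif, Chir99021, base and coating all differ between T and CPE, so their shares in a difference cannot be told apart.

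Primitive endoderm is the early layer of the rodent embryo that faces the blastocyst cavity and later forms the visceral and parietal endoderm of the yolk sac. Gsk3 phosphorylates beta-catenin in a complex with Axin and Apc and so marks it for destruction. When Gsk3 is inhibited, beta-catenin accumulates and works with Tcf/Lef factors in the nucleus, where Axin2 and Lgr5 are widely used reporters of the pathway. Lif acts through the gp130 receptor and Stat3, and dexamethasone through the glucocorticoid receptor Nr3c1.

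The T libraries held 1698764 to 2161228 counts in genes and the CPE libraries 3127352 to 4418465. Reads that mapped to several places, which enter no gene, were 64.9% to 67.6% of all reads in T and 51.7% to 58.2% in CPE. Genes with at least 1 count numbered 10143 to 10621 per T library, 9162 to 9878 per CPE library and 8607 to 9314 per LPE library. Genes with exactly 1 count numbered 511 to 791 per T library, 33 to 92 per CPE library and 26 to 58 per LPE library. Between replicates, genes of 20 to 99 counts had a variance of 1.35 to 2.05 times that of sampling in T. The same ratio was 7.38 to 11.7 in CPE and 9.93 to 15.6 in LPE. Among the marker genes of the labelled cell type, all 10 of 10 primitive endoderm markers were detected in both media, with summed levels of 4313 to 4412 CPM (counts scaled to a common library total with TMM factors, per 1e+06) in T and 3337 to 3540 CPM in CPE. Of 8 fibroblast markers 5 were at 0 in every T library and 7 in every CPE library, with sums of 1.39 to 32.4 and 0 to 6.44 CPM. Summed trophoblast markers ran from 0.93 to 2.73 CPM in T and from 12.04 to 28.99 in CPE, with Prl3d1 and Hand1 at 0 in all 6 libraries, and summed neural markers from 7.905 to 16.9 and from 0 to 2.27 CPM. The part of these other cell types' markers in the results below was not tested.

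An edgeR adjusted p under 0.05 was reached by 2939 of 9130 genes (32.2%), which are named as called hereafter. The calls were 1532 higher in CPE (16.8%) and 1407 lower (15.4%), and 1561 (17.1%) changed at least 2-fold, 937 higher (10.3%) and 624 lower (6.83%). The 3 CPE libraries lay wholly above or wholly below the 3 T libraries for 4965 genes (54.4%). Over all genes tested the median log2 fold change was -0.01, a value close to no change. Calls were unevenly spread over levels, from 3.85% of genes under 5 CPM in the higher medium to 80% of those at 500 CPM or more. The plot of level against change shows this widening of the calls toward abundant genes. At 100 to 500 CPM the share was 56.5%. The counts of calls in the gene lists below are to be read beside the 32.2% over all genes. The lists differ in level, and the part of level in their shares called was not tested.

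**Figure D1:**
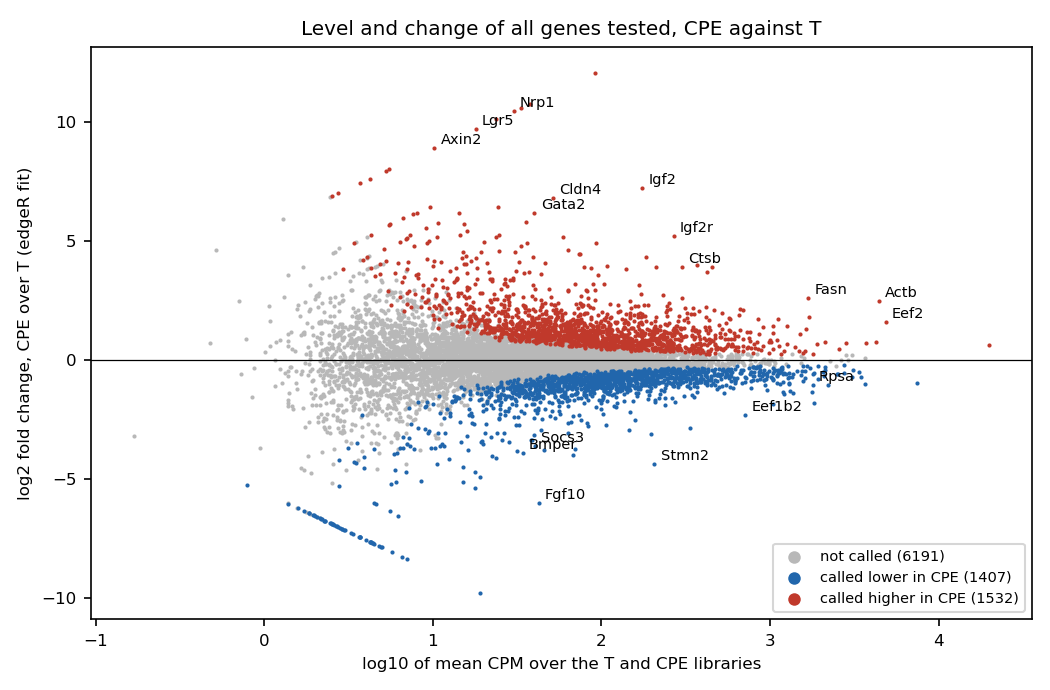
Mean level over the 6 libraries (horizontal, log10 CPM) against the log2 fold change of CPE over T (vertical) for the 9130 genes tested, each point a gene. The 1532 genes called higher (red) and 1407 called lower (blue) lie on both sides of 0, and the slanted line of points at the lower left holds genes with 0 counts in every CPE library, whose fitted change depends on the prior count.

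Among the most abundant genes that changed at least 2-fold, the rises were led by Actb, Eef2 and Fasn and the falls by Eif5a, Ctsl and Ldha. Actb, which encodes cytoplasmic beta-actin, had 1397, 1312 and 1319.6 CPM in the T libraries and 8323, 7554 and 6609.8 CPM in the CPE libraries. Every CPE library was above every T library by several-fold, and the test gave a log2 fold change of 2.48 with an SE of 0.10 and an edgeR adjusted p = 1.1e-10. Eef2, the elongation factor that moves the ribosome along the message, rose 3.02-fold to 7305 ± 186 CPM (mean ± SD, n = 3, as for all such values). The poly(A)-binding protein gene Pabpc1 rose 3.34-fold, and the hnRNP gene Hnrnpa1 2.67-fold. Usp9x, a deubiquitinase gene, rose 2.65-fold to 1319.5 ± 106 CPM against 698 ± 25.5 CPM in LPE (edgeR adjusted p = 2.5e-06 for CPE against LPE). Cnot1, the scaffold of the deadenylase complex, rose 3.29-fold, and Trim28, a corepressor of transposable elements, 2.17-fold. On the other side, Eif5a fell 2.06-fold from 2965 ± 171 CPM, the protein translocation channel gene Sec61a1 2.03-fold and the histone variant gene H2afx 2.56-fold. Glul, the glutamine synthetase gene, had 1631, 1639 and 1606 CPM in T, 456, 491 and 395 in CPE and 2576, 2635 and 2323 in LPE. CPE was thus the lowest medium for Glul, with no overlap of its libraries with those of the others (edgeR adjusted p = 7.8e-10 against T and 8.5e-11 against LPE).

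Wnt pathway genes are the ones nearest to the action of Chir99021. Axin2, which encodes a scaffold of the destruction complex and feeds back on the pathway, had 7.08, 15.2 and 38.98 CPM in the CPE libraries and 0 counts in each of the T and LPE libraries. Lgr5, the R-spondin receptor gene, showed the same layout with 36.9, 12.04 and 58.9 CPM in CPE and 0 counts elsewhere. Levels in CPE differed several-fold among the 3 libraries for both genes, but each CPE library stood above all T and LPE libraries. Set against 3 counts per T library, a floor that covers counting error only, Axin2 was at least 12.8-fold higher and Lgr5 at least 22.6-fold higher in CPE (edgeR adjusted p = 0.0015 and 0.00014). Without CPE replicate 3 the bound for Axin2 was 7.01-fold. Among the 11 Wnt feedback genes tested, 2 rose and 2 fell, 36.4% called against 32.2% over all genes. The other settings of normalisation, filter, test, library set, block, strand and depth gave 1 to 3 rises. Both that fell were Myc, the growth regulator, at 27.3, 34.7 and 29.3 CPM in T and 11.2, 14.3 and 10.6 in CPE, and Bambi, a decoy receptor of the Tgf-beta family, at 20.97 ± 4.45 and 4.19 ± 2.6 CPM. Both were also lower in CPE than in LPE (edgeR adjusted p = 0.00016 for Myc and 0.00057 for Bambi). Rnf43, an E3 ligase gene that removes Frizzled receptors, had 2.73, 0.579 and 0 CPM in T and 8.55, 8.4 and 8.38 in CPE and was called with voom (adjusted p = 0.00192) and with 6 libraries (0.0205) but not otherwise. Among the others not called, Ccnd1 had 25.8 ± 7.15 and 27.5 ± 6.95 CPM, Cd44 20.6 ± 5.85 and 17.5 ± 10.1 CPM and Ephb3 174 ± 14.8 and 198 ± 41.9 CPM.

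Because beta-catenin acts through Tcf/Lef sites, the promoter windows of the genes that had counts in CPE alone were searched. The motif searched was CTTTG followed by 2 bases that are each A or T, on both strands, in the 250 bases before each RefSeq start on GRCr8. These letters occur in 14.7% of all 27457 windows and in 9.7% of the 7052 windows of genes tested. The shares were 8.9% for genes called higher in CPE and 9.6% for those called lower, near that of the genes tested. Of 22 Wnt feedback genes, 16 had a window and 6 held the letters, Axin2, Cd44, Nkd1, Sp5, Sp8 and Tnfrsf19. Only Axin2 among these 6 was called between CPE and T. Of the 9 genes called higher without a count in any T or LPE library (Axin2, Lgr5, Nrp1, Ovol1, Pgc, Smpx, Stac2, Syt9 and Zic1) 5 had a window, and of these Axin2 and Pgc, a gastric aspartic protease gene, held the letters. The call of Ovol1 was lost with any 1 of the 6 libraries left out (adjusted p = 0.0639 to 0.14), with no filter (0.0509), with the replicate block (0.0958) and on either strand (0.0799). The windows of Axin2 (chr10:94398535-94398784, plus strand), with matches starting 232 and 132 bases before the start, and of Pgc (chr9:20763221-20763470, minus strand), with a match at 249 bases, are shown because they carry these matches, and that of Nrp1 (chr19:73256307-73256556, plus strand) as one of this group without any. Capitals mark the letters found, and a match is a description of the sequence, not a bound site.
Axin2: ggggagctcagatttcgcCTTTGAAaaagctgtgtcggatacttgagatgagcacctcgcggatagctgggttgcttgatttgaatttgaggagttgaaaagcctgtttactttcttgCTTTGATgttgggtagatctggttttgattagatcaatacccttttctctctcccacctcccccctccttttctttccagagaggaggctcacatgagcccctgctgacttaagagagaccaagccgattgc
Pgc: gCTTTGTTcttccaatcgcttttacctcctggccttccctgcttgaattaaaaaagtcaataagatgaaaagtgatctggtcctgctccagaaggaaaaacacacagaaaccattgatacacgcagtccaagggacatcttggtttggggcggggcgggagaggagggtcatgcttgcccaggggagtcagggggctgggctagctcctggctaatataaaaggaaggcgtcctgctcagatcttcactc
Nrp1: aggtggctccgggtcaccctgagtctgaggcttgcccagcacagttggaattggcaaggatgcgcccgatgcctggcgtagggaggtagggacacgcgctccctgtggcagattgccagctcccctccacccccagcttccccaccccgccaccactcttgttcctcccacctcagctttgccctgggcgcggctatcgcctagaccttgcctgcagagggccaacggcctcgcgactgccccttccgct

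Of 33 genes for ligands, R-spondins, inhibitors and their secretion machinery, 15 had 0 counts in all 9 libraries and 8 were tested, of which 2 rose and 3 fell. Among them, 0 fell without T replicate 1 or 3, and 1 fell without T replicate 2 or CPE replicate 2 or 3. Across the other settings there were 1 to 4 falls. In the main fit 62.5% of the 8 were called, against 32.2% over all genes. Porcn, which acylates Wnt proteins, rose 5.85-fold from 6.73 ± 1.02 to 39.4 ± 15.2 CPM, and Wls, which carries them to the surface, had 31.1, 33.01 and 27.9 CPM in T, 81.98, 67.5 and 106 in CPE and 16.9, 4.97 and 12.5 in LPE. Wls was thus highest in CPE, without overlap (edgeR adjusted p = 0.0038 against T and 3.9e-05 against LPE). The falls of Dkk3, Wnt7b and Sfrp1 were lost with fewer libraries, Dkk3 without T replicate 1 or 3 (adjusted p = 0.0508 to 0.0525) and with reads on either strand (0.165), Wnt7b without T replicate 1 or 2 or 3 or CPE replicate 2 or 3 (adjusted p = 0.0895 to 0.123) and Sfrp1 with any 1 of the 6 libraries left out (adjusted p = 0.0585 to 0.234). Sfrp1 was also uncalled with median-ratio factors (0.0516), DESeq2 (0.0505), the replicate block (0.0641) and thinned counts (0.0559). Of 15 receptor genes 4 rose and 1 fell, a share near the 32.2% called over all genes. With 1 library left out, 1 rose without T replicate 1 or 2 or 3 or CPE replicate 2, and 2 rose without CPE replicate 1 or 3. Fzd6, a Frizzled receptor gene, rose 2.22-fold to 277 ± 27.7 CPM, with a log2 fold change of 1.15 with an SE of 0.14 and an edgeR adjusted p = 1.2e-05, whereas Ryk, a receptor-like kinase gene, fell 1.71-fold to 110.1 ± 26.9 CPM. Lgr4, a relative of Lgr5, had 244 ± 9.41 CPM in T and 289 ± 7.08 in CPE and was not called, and the co-receptor gene Lrp6 had 45.9 ± 10.9 and 70.4 ± 19.3 CPM.

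Of 23 genes for the destruction complex and its nuclear partners, 6 rose, 4 fell and 13 stayed uncalled. The share called was 43.5%, against 32.2% over all genes. In fits on fewer libraries, 2 fell without T replicate 2. Ctnnb1, the beta-catenin gene itself, had 1503, 1634 and 1502 CPM in T and 749.9, 816 and 914 in CPE. Each CPE library was well below the lowest T library, with a log2 fold change of -0.90 with an SE of 0.10 and an edgeR adjusted p = 6e-06, while LPE stood at 907 ± 117 CPM, which the test did not separate from CPE (adjusted p = 0.42). Apc, the scaffold that holds beta-catenin in the complex, rose 3.91-fold from 212 ± 19.2 to 831 ± 78.2 CPM. Other rises were those of Gsk3b, the kinase gene itself (2.36-fold, to 108 ± 10.8 CPM), the tankyrase gene Tnks (2.06-fold), the nuclear effector gene Tcf7l2 (2.84-fold, to 107 ± 25.7 CPM), the casein kinase gene Csnk1e (2.95-fold) and the Groucho corepressor gene Tle3 (4.62-fold, to 58.3 ± 15.2 CPM). Its relative Tle4 fell 1.54-fold to 245 ± 22.1 CPM. The falls of Gsk3a and Tnks2 were lost with fewer libraries, Gsk3a without T replicate 2 (adjusted p = 0.061) and Tnks2 without T replicate 2 or 3 or CPE replicate 1 or 2 (adjusted p = 0.107 to 0.194) and with 6 libraries (0.0598).

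**Figure D2:**
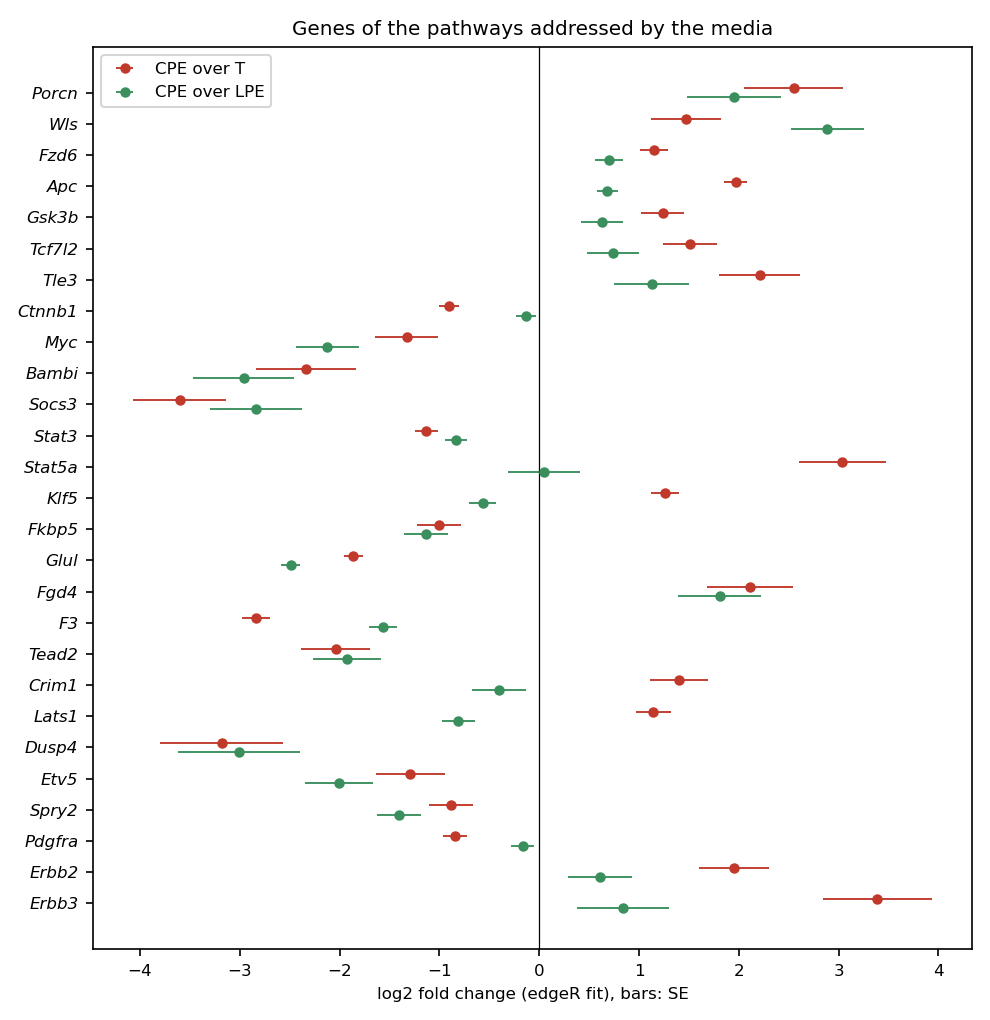
Log2 fold changes from the edgeR fit with their SE for 27 genes of the pathways that the media address, CPE over T in red and CPE over LPE in green (n = 3 libraries per medium, and both comparisons share the CPE libraries). Socs3, Dusp4 and Tead2 lie left of 0 in both, whereas Stat5a and Ctnnb1 lie away from 0 against T and near 0 against LPE.

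Lif was present in T and LPE and absent from CPE. Of 25 genes of the Lif receptor and Stat pathway, 6 rose, 7 fell and 12 stayed uncalled, against 16.8% and 15.4% over all genes. Leaving out a library, 3 rose without T replicate 2 or 3, and 4 fell without T replicate 1 or 3. Socs3, the feedback inhibitor that Stat3 induces, had 71.5, 79.3 and 72.5 CPM in T, 7.08, 6.59 and 4.51 in CPE and 73.5, 43.2 and 14.4 in LPE. The CPE libraries were the lowest of all 9 and did not overlap with either other medium (edgeR adjusted p = 0.00038 against LPE). Stat3 fell 2.19-fold from 507 ± 29.9 to 231 ± 21.2 CPM and was also below the 413 ± 37.2 CPM of LPE (edgeR adjusted p = 7.3e-05). In the other direction Stat5a, of the growth hormone and prolactin receptor pathway, rose from 3.52 ± 0.285 to 29.1 ± 6.36 CPM, next to 28.2 ± 5.08 CPM in LPE, and Klf5, a Krüppel-like factor gene of pluripotent cells, rose 2.39-fold to 507 ± 112 CPM. The gp130 gene Il6st was not called, at 211 ± 45.3 CPM in T and 233 ± 24.2 in CPE.

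Dexamethasone was present in T alone. Of 18 genes induced by glucocorticoids or working with their receptor, 4 rose, 5 fell and 9 stayed uncalled. These calls were 50% of the list, against 32.2% over all genes. Of these members, 2 rose without T replicate 3 or CPE replicate 3. Fkbp5, a co-chaperone gene that glucocorticoids induce in many tissues, had 57.8, 75.9 and 80.4 CPM in T, 35.1, 33.6 and 38.01 in CPE and 83.1, 80.5 and 71.2 in LPE, so that CPE was the lowest medium while LPE, also without dexamethasone, overlapped with T. Cdkn1c, an inhibitor of cyclin-dependent kinases and a maternally expressed gene, fell 7.56-fold from 258 ± 29.3 to 33.9 ± 6.21 CPM. The Hsp90 partner genes went both ways, Fkbp4 falling 1.59-fold and Ptges3 rising 1.69-fold, and Fgd4, which activates the small GTPase Cdc42, rose 4.31-fold to 59.5 ± 6.48 CPM. Tsc22d3, another gene that glucocorticoids induce, had 3.8 ± 1.79 CPM in T and 9.01 ± 2.2 in CPE and was not called, and the receptor gene Nr3c1 rose 1.94-fold, but was not called without T replicate 3 or CPE replicate 1 or 3 (adjusted p = 0.0508 to 0.117).

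Serum drives immediate early genes through Srf, and the Hippo pathway effectors Yap and Taz drive a partly shared set. Of 27 such genes, 5 rose, 5 fell and 17 stayed uncalled, 37% called against 32.2% over all genes. Among them, 3 fell without T replicate 1 or 2 or CPE replicate 1 or 2. With other settings there were 3 to 5 falls. F3, the tissue factor gene that starts blood clotting, fell 7.15-fold from 592 ± 30.5 to 82.8 ± 13.3 CPM, and Tead2, a partner of Yap, fell 4.1-fold. Lats1, a kinase gene that restrains Yap, rose 2.21-fold, the transmembrane protein gene Crim1 2.64-fold, vinculin (Vcl) 1.83-fold and tropomyosin 1 (Tpm1) 2.43-fold. Yap1 itself stood at 103 ± 6.95 and 109 ± 17.4 CPM and Ctgf, a widely used Yap target, at 141 ± 22.02 and 125 ± 61.8 CPM, neither of them called. Cnn1, the calponin gene of contractile cells, had 10.9, 12.7 and 5.11 CPM in T and 0 counts in every CPE library.

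Pdgf and Egf were in both media at the same dose. Of 29 genes for their receptors, signalling steps and feedback, 4 rose, 6 fell and 19 stayed uncalled. The share called was 34.5%, near the 32.2% over all genes. Some feedback genes that the Erk pathway induces were among the falls, and other feedback genes of the list, except Dusp6, are not reported here. Dusp4, an Erk phosphatase gene, had 26.2, 32.4 and 27.4 CPM in T and 7.37, 1.14 and 0.966 in CPE. Etv5, an Ets factor gene, fell 2.45-fold to 13.8 ± 2.01 CPM and Spry2, the Sprouty inhibitor gene, 1.85-fold to 50.7 ± 10.2 CPM. Dusp4, Etv5 and Spry2 were lower in CPE than in LPE too (edgeR adjusted p = 0.0025, 0.00056 and 0.00025). For none of them did the libraries of CPE overlap with those of T. Dusp6 had 15.3, 19.7 and 21.4 CPM in T and 11.5, 3.86 and 0.322 in CPE and missed the threshold (edgeR adjusted p = 0.063), which it passed with no filter (0.0442), with DESeq2 (0.0371), with voom (0.0167) and without CPE replicate 1 (0.0068). Among receptors, Pdgfra fell 1.79-fold to 259 ± 28.3 CPM. Erbb3, a receptor gene of the Egf receptor family, had 8.73, 4.63 and 0.93 CPM in T and 60.7, 53.1 and 33.5 in CPE, and its partner Erbb2 rose 3.86-fold from 11.3 ± 0.927 to 43.6 ± 3.69 CPM. CPE and LPE did not differ by the test in either receptor (27.4 ± 11.5 and 28.5 ± 8.44 CPM in LPE).

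Junction genes of epithelial cells stood higher in CPE. Of 18 tested genes of adherens junctions and desmosomes, 10 rose, 0 fell and 8 stayed uncalled, with a median log2 fold change of 1.49 against -0.01 over all genes. Epcam, an epithelial adhesion molecule gene, had 72.03, 89.8 and 79.98 CPM in T, 458, 399 and 407 in CPE and 169, 157 and 166 in LPE. The 3 media did not overlap in Epcam, with LPE between the others, and the change from T was a log2 fold change of 2.39 with an SE of 0.14 and an edgeR adjusted p = 2.9e-09. Dsc2, a desmosomal cadherin gene, rose 4.94-fold to 138 ± 18.1 CPM, plakoglobin (Jup) 4.87-fold to 262 ± 56.9 CPM, the alpha-catenin gene Ctnna1 3.56-fold, the giant cadherin gene Fat1 3.63-fold, afadin (Mllt4) 2.22-fold and p120-catenin (Ctnnd1) 1.85-fold. Perp, a desmosome-associated gene, rose 3.85-fold to 125 ± 30.03 CPM against 56.8 ± 7.33 CPM in LPE (edgeR adjusted p = 0.0083).

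Tight junction and polarity genes rose in 16 and fell in 1 of 31 cases (median log2 fold change 0.71). Cldn6, a claudin of embryonic epithelia, had 40.4, 28.4 and 33.01 CPM in T, 294, 211 and 390.4 in CPE and 128, 98.2 and 108 in LPE. Cldn6 increased over T in CPE by a log2 fold change of 3.13 with an SE of 0.23 and an edgeR adjusted p = 5.4e-08. Cldn4 was near 0 in T at 2.18, 0 and 0.465 CPM and reached 122, 73.4 and 110.5 CPM in CPE, and Cldn23 went from 1.09, 0 and 0.465 to 90.8, 23.8 and 29.6 CPM. Grhl2, the Grainyhead factor gene that works on epithelial junction genes, had 1.64, 4.05 and 4.65 CPM in T, 59.3, 76.8 and 49.3 in CPE and 8.31, 0 and 7.37 in LPE, with every CPE library far above the rest (edgeR adjusted p = 0.00042 against T and 0.0015 against LPE). Occludin (Ocln) rose 2.31-fold, the scaffold gene Tjp1 1.81-fold, the polarity gene Pard3 2.21-fold and the epithelial splicing regulator gene Esrp2 2.13-fold. The member that fell was Llgl1, a basolateral polarity gene, which was no longer called without T replicate 1 or 2 or CPE replicate 2 or 3 (adjusted p = 0.0501 to 0.0762).

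Among intermediate filament genes, Krt4, which belongs to mucosal epithelia, rose to 201 ± 72.1 CPM from 12.8 ± 5.44, next to 205 ± 17.4 CPM in LPE. Krt8 and Krt18, the keratin pair of simple epithelia, rose 4.27-fold and 3.8-fold, and both were also above LPE (edgeR adjusted p = 2.2e-09 and 5.7e-08). These genes and Actb have close copies in the genome, so the counts of uniquely mapped reads leave them uncertain. The same limit holds for any other gene here that has close copies. Vim, the filament gene of mesenchymal cells, had 272, 205 and 248 CPM in T, 65.2, 50.6 and 42.2 in CPE and 515, 541 and 447 in LPE, and the 3 media did not overlap.

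**Figure D3:**
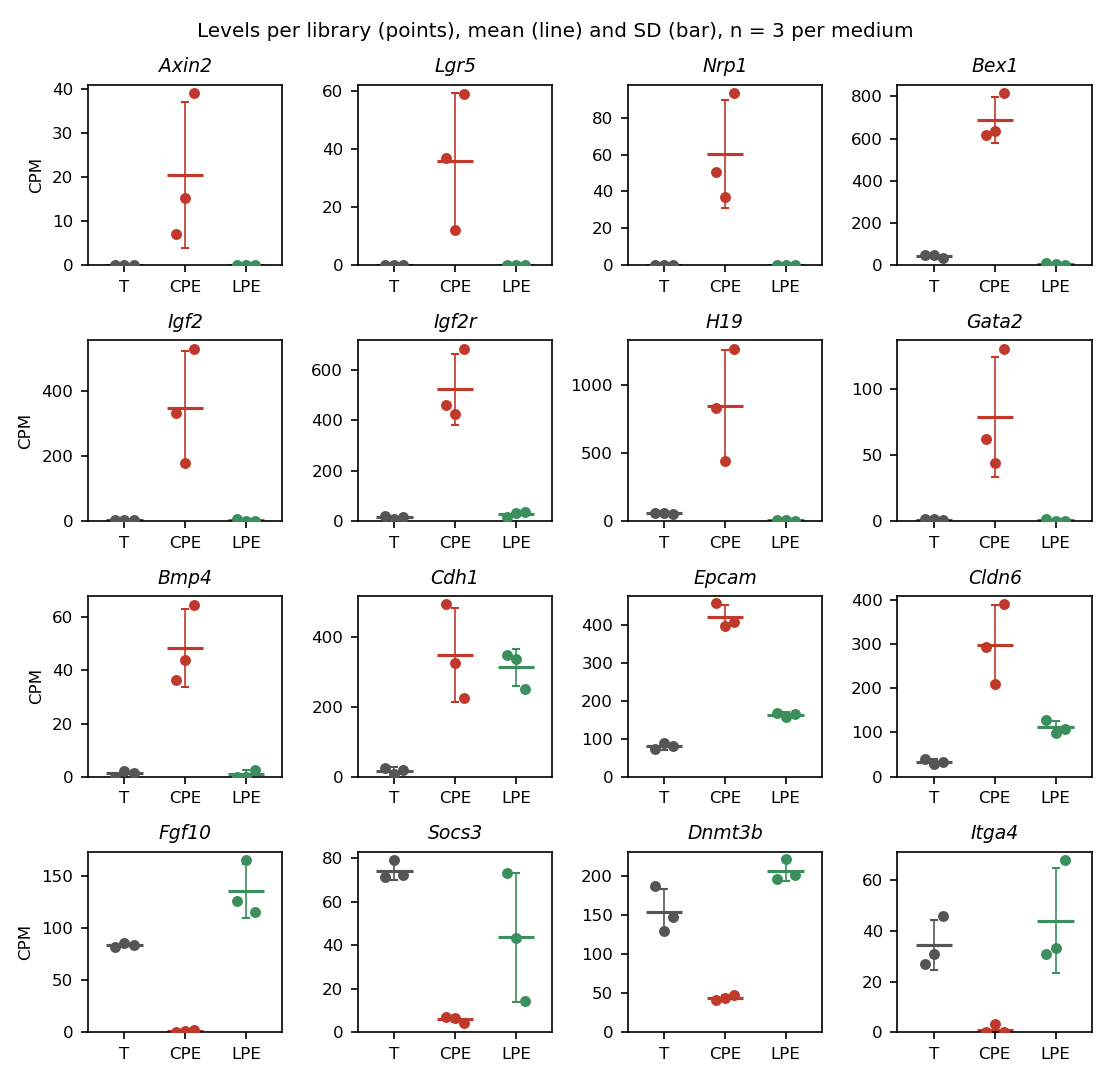
CPM of 16 genes in each of the 9 libraries, with T in grey, CPE in red and LPE in green (points are libraries, lines are means and bars are SD, n = 3, and each panel has its own axis from 0). Axin2, Lgr5 and Nrp1 have points above 0 in CPE alone, and Fgf10, Socs3, Dnmt3b and Itga4 have their lowest points in CPE.

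The actin cytoskeleton and focal adhesion list gave 21 rises and 6 falls among 52 genes tested (median log2 fold change 0.37). Its summed level was 12502 to 13191 CPM in T, 20360 to 22566 in CPE and 20167 to 22172 in LPE. Next to Actb, Pdlim1, an actinin-binding adaptor gene, had 18.01, 18.5 and 19.1 CPM in T and 242, 256 and 279.9 in CPE, a rise of 13.9-fold. Both replicate ranges were narrow, and LPE stood at 155 ± 27.6 CPM. Lasp1 rose 4.39-fold, gelsolin (Gsn) 3.02-fold, the actinin genes Actn1 and Actn4 2.88-fold and 1.57-fold, zyxin (Zyx) 2.82-fold, the formin gene Diaph1 2.29-fold and the GTPase gene Rac1 2.29-fold. Falls included the muscle filamin gene Flnc (4.9-fold, to 9.31 ± 6.38 CPM), the GTPase gene Rhoc (2.89-fold) and Fhl1 (2.29-fold). Pdlim4 had 8.18, 9.84 and 8.83 CPM in T and 0 counts in all CPE libraries. Among 26 microtubule genes, 10 rose, 3 fell and 13 stayed uncalled. The other settings gave 3 to 6 falls. Bex1, a small adaptor protein gene of neural and progenitor cells, was placed in this list and had 47.5, 48.6 and 35.8 CPM in T, 619.6, 635 and 816 in CPE and 10.5, 4.04 and 0 in LPE. Stmn2, which encodes a tubulin-binding protein, moved the other way to 18.6, 25.7 and 12.6 CPM in CPE from 381, 404 and 396 in T. The tubulin genes Tuba1a and Tubb6 rose 2.38-fold and 2.56-fold, and Mapt, the tau gene, went from 1.98 ± 0.806 to 20.7 ± 3.04 CPM.

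Basement membranes of laminin and collagen IV are a main product of parietal endoderm. Of 20 such genes, 8 rose, 6 fell and 6 stayed uncalled, against 32.2% called over all genes. The laminin chain genes Lamc1 and Lama1 rose 2.45-fold and 1.66-fold, and the collagen gene Col4a1 1.67-fold, yet all 3 stayed below LPE (edgeR adjusted p = 0.015, 1.6e-05 and 1.6e-06). Lama5 rose 2.89-fold and the lysyl hydroxylase gene Plod1 2.68-fold. The laminin chain gene Lamb3 had 8.18, 15.1 and 10.2 CPM in T and 0, 1.82 and 0 in CPE, and Lama4 6.002, 5.79 and 5.58 CPM in T and 0 counts in each CPE library. The collagen chaperone gene Serpinh1 fell 1.998-fold from 4905 ± 278 CPM and the prolyl hydroxylase genes P4ha1 and P4ha2 1.8-fold and 3.32-fold.

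Receptors and proteases of the matrix changed as well. Of 13 integrin genes, 4 rose, 2 fell and 7 stayed uncalled, 46.2% called against 32.2% over all genes. With 1 library left out, 1 fell without T replicate 2. Itga4, the alpha chain of the integrins that bind fibronectin's spliced region and Vcam1, had 26.7, 30.7 and 45.6 CPM in T, 0, 3.41 and 0 in CPE and 30.7, 33.3 and 67.6 in LPE, with CPE below both other media and without overlap. The common beta chain gene Itgb1 rose 1.53-fold to 725 ± 16.4 CPM and Itga6, of the laminin receptors, 1.52-fold. Gpc3, a proteoglycan gene of the cell surface, fell from 34.9, 45.2 and 23.2 CPM in T to 0, 0 and 2.58 in CPE, and LPE stood at 1.71 ± 2.96 CPM. The DESeq2 test did not call Gpc3 (adjusted p = 0.098). Among 25 matrix protease and inhibitor genes, 9 rose, 3 fell and 13 stayed uncalled. In fits on fewer libraries, 1 fell without T replicate 1 or 2. Across the other settings there were 1 to 6 falls. Those that rose included a set of membrane serine proteases of epithelia: St14, the matriptase gene, rose 3.75-fold to 151 ± 11.7 CPM, Prss8, the prostasin gene, had 11.5, 10.4 and 5.58 CPM in T and 65.8, 66.3 and 82.5 in CPE, and Tmprss2 had 1.64, 1.74 and 2.32 and 49.8, 21.6 and 69.9 CPM. Mmp15, a membrane-anchored metalloprotease gene, had 1.64, 1.16 and 0.93 CPM in T, 74.3, 55.6 and 79.6 in CPE and 3.52, 0 and 1.6 in LPE, and the inhibitor gene Timp3 rose 2.96-fold.

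Of 16 tested ligand genes, 6 rose, 3 fell and 7 stayed uncalled, and another 15 of the 48 in the tables had 0 counts in every library. Igf2, the fetal insulin-like growth factor gene, had 2.18, 1.74 and 2.79 CPM in T, 333, 178 and 529.9 in CPE and 7.03, 0 and 0 in LPE. The CPE values differed several-fold from each other, but the lowest of them stood far above all T and LPE libraries (edgeR adjusted p = 8.3e-06 against T and 1.1e-05 against LPE). Igf1 moved in the same direction, from 18.01, 8.69 and 13.9 CPM in T to 125, 91.98 and 159 in CPE, with 7.74 ± 3.3 CPM in LPE. Bmp4, a morphogen of the yolk sac and other tissues, had 0, 2.32 and 1.39 CPM in T and 36.3, 44.1 and 64.7 in CPE, and Bmp6 rose from 3.09 ± 1.01 to 21.5 ± 7.48 CPM, below the 64.7 ± 15.1 CPM of LPE. Kitlg, the stem cell factor gene, rose 1.86-fold and Vegfa 2.11-fold. Fgf10, a ligand of mesenchyme that acts on epithelia, had 81.3, 85.1 and 84.2 CPM in T, 0, 1.82 and 1.93 in CPE and 126, 165 and 116 in LPE. Fgf10 was thus close to absent from CPE while both media with Lif expressed it (edgeR adjusted p = 3.1e-08 against T and 1.4e-08 against LPE).

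Among 24 receptors, transducers and inhibitors of the Tgf-beta and Bmp families, 5 rose, 5 fell and 14 stayed uncalled. The share called was 41.7%, against 32.2% over all genes. The Id genes, which encode inhibitors of basic helix-loop-helix factors and are induced by Bmp, were split. Id1 fell from 125, 174 and 137 to 17.7, 5.45 and 41.9 CPM and Id4 3.44-fold, whereas Id2 rose from 10.4, 13.3 and 11.6 CPM in T to 64.6, 28.2 and 59.9 in CPE, against 9.27, 5.91 and 1.28 in LPE. Bmper, an extracellular Bmp regulator gene, fell from 62.2, 54.4 and 75.3 CPM to 4.42, 6.13 and 1.61, and LPE held 173, 189 and 196 CPM. The receptor gene Bmpr2 rose 2.29-fold, Smad4 1.98-fold and the latent Tgf-beta binding protein gene Ltbp1 3.07-fold.

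Of 15 Notch pathway genes, 7 rose, 0 fell and 8 stayed uncalled (median log2 fold change 0.68). Notch3 had 3.27, 4.63 and 6.97 CPM in T, 60.5, 61.8 and 34.1 in CPE and 1.92, 17.1 and 8.33 in LPE, with no overlap between CPE and either other medium (edgeR adjusted p = 0.0044 against LPE). Notch2 rose 3.87-fold, Ncstn, a subunit of the protease that releases the Notch intracellular domain, 4.49-fold, and the target gene Hes1 3.005-fold to 259 ± 135 CPM. Guidance molecules gave 9 rises and 0 falls among 28 genes tested, 32.1% called against 32.2% over all genes. Nrp1, the neuropilin gene for semaphorin and Vegf reception, had 50.7, 37.02 and 93.4 CPM in CPE and no count in any T or LPE library, which was at least 37.98-fold higher (edgeR adjusted p = 6.6e-06). Its relative Nrp2 rose 4.9-fold to 86.3 ± 9.69 CPM, next to 87.5 ± 9.58 CPM in LPE. Ephb6, an Eph receptor gene, had 2.73, 1.74 and 4.65 CPM in T and 40.7, 51.1 and 28.7 in CPE, and the Slit receptor genes Robo1 and Robo2 rose 4.05-fold and 3.52-fold, Robo2 also above LPE (edgeR adjusted p = 1.3e-05).

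Genes that set the identity of the endoderm changed in both directions, with log2 fold changes from -3.06 to 3.47. Of 21 regulators, 7 rose, 2 fell and 12 stayed uncalled, 42.9% called against 32.2% over all genes. Gata4 was not called (903 ± 80.3 and 927 ± 31.3 CPM). Hnf4a, a hepatocyte nuclear factor gene that works in visceral endoderm, rose 2.96-fold and Klf6 3.09-fold, whereas Sox17 fell 1.8-fold and Foxq1 2.49-fold. Sox7 rose 3.95-fold, but was not called with any 1 of the 6 libraries left out (adjusted p = 0.0598 to 0.129) or with the replicate block (0.0509). Visceral endoderm takes up proteins through large receptors, and of 16 such receptors and adaptors 8 rose, 6 fell and 2 stayed uncalled. Igf2r, which clears Igf2 and sorts lysosomal enzymes, had 18.01, 8.69 and 15.3 CPM in T, 459, 427 and 684 in CPE and 16.6, 32.6 and 33.98 in LPE, with a log2 fold change of 5.21 with an SE of 0.30 and an edgeR adjusted p = 2.9e-09 and no overlap. Lrp2, the megalin gene, rose 2.88-fold, the clathrin gene Cltc 2.15-fold and the endosomal chloride transporter gene Clcn5 2.78-fold. Amn, the membrane anchor of cubilin, fell from 117, 134 and 135 to 11.5, 7.27 and 10.6 CPM, and Cubn itself 1.7-fold to 472 ± 73.2 CPM. With limma voom Cubn was not called (adjusted p = 0.097). Dab2, their endocytic adaptor, fell 2.5-fold and the transferrin receptor gene Tfrc 1.88-fold. Aqp8, a water channel gene, had 25.1, 21.4 and 32.1 CPM in T, 305, 474 and 408 in CPE and 61.7, 58.1 and 52.9 in LPE.

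Imprinted genes, which are expressed from 1 parental copy, gave 7 rises and 5 falls among 27 tested. The share called was 44.4%, against 32.2% over all genes. Leaving out a library, 3 fell without T replicate 2 or CPE replicate 1. With other settings there were 4 to 8 falls. H19, a maternally expressed RNA gene next to Igf2, had 56.7, 61.4 and 51.6 CPM in T, 828, 442 and 1262 in CPE and 7.35, 9.01 and 0 in LPE. As for Igf2, CPE replicate 3 was the highest and CPE replicate 2 the lowest, and all CPE libraries lay above the others (edgeR adjusted p = 3.5e-05 against T and 3.3e-06 against LPE). Mest and Gab1 rose 3.04-fold and 2.69-fold to levels near those of LPE (93.5 ± 14.1 and 98.3 ± 14.6 CPM for Mest). Ddc and Cd81 fell 4.37-fold and 2.43-fold.

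Enzymes of DNA methylation were divided. The de novo methyltransferase genes were lower, Dnmt3b with 187, 129.7 and 148 CPM in T, 40.99, 43.8 and 47.99 in CPE and 197, 223 and 202 in LPE, and Dnmt3a with 69.3, 72.97 and 89.7, 5.6, 9.99 and 14.8 and 54.7, 95.7 and 57.4 CPM. CPE was the lowest medium in both, without overlap (edgeR adjusted p = 1.5e-07 and 2.8e-05 against LPE). The maintenance enzyme gene Dnmt1 rose 1.67-fold and its partner Uhrf1 3.9-fold to 269.9 ± 30.98 CPM. Rbbp7, a histone-binding subunit of several chromatin complexes, rose 3.51-fold to 2632 ± 765 CPM, above the 467 ± 90.9 CPM of LPE (edgeR adjusted p = 8.8e-08). Within the 35 genes of this list, 9 rose, 8 fell and 18 stayed uncalled. Of these members, 4 fell without T replicate 2 or 3 or CPE replicate 1, and 5 fell without T replicate 1 or CPE replicate 2. Ezh2, the Polycomb methyltransferase gene, rose 1.72-fold.

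Pluripotency and trophoblast genes were at low or moderate levels. Of 9 pluripotency genes tested, 2 rose, 3 fell and 4 stayed uncalled, with a median log2 fold change of 0.27. Those that rose were Klf4 and Klf5, and across the settings run there were 1 to 2 rises. The falls were those of Pou5f1 (1.92-fold, to 132 ± 32.1 CPM), Lin28a (1.51-fold) and Mycn (2.41-fold). Nanog and Sox2 had 0 counts in the T and CPE libraries. Gata2, a factor of trophoblast and blood, had 1.09, 1.16 and 0.93 CPM in T, 61.9, 44.3 and 131 in CPE and 1.28, 0 and 0 in LPE. Each CPE library was far above all T and LPE libraries for Gata2 (edgeR adjusted p = 4.4e-06 against T and 2.7e-06 against LPE). Elf5, another trophoblast factor gene, had 0.546, 0.579 and 0.465 CPM in T and 9.73, 12.04 and 5.8 in CPE, but was not called with any 1 of the 6 libraries left out (adjusted p = 0.056 to 0.169), with no filter (0.063) or with the replicate block (0.0839). Among other factors, Sox5 went from 1.21 ± 0.16 to 38.9 ± 13.6 CPM, Foxp1 rose 6.86-fold, Klf10 7.998-fold and Klf11 3.8-fold, and Sox13 fell 2.79-fold.

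The Mir290 cluster encodes miRNAs of early embryonic cells, and its hairpin genes are listed in the tables, where reads over them do not measure the mature forms. They were chosen after their values had been seen. Mir290 had 8, 12 and 8 counts in the T libraries, Mir291a 7, 11 and 26 and Mir294 13, 9 and 12, and each had 0 counts in all CPE and LPE libraries. Against the floor of 3 counts per CPE library these were at least 5.94-fold, 8.8-fold and 7.06-fold lower in CPE, with edgeR adjusted p-values of 0.04, 0.019 and 0.028. The calls of Mir290 and Mir294 were lost with any 1 of the 6 libraries left out (adjusted p up to 0.14 and 0.104) and that of Mir291a without T replicate 2 or 3 or CPE replicate 2 (0.0643, 0.116 and 0.0503). The neighbours Mir291b and Mir292 had 13 to 29 and 6 to 15 counts in T and 0, 0 and 8 and 0, 0 and 11 in CPE, and neither was called. Mir291b was called by the DESeq2 test (adjusted p = 0.0232), with voom (0.0154), with 6 libraries (0.0148) and without CPE replicate 3 (0.0193). With the replicate block Mir290, Mir291a and Mir294 were not called (0.0973, 0.0557 and 0.0748). Mature sequences from RefSeq (GRCr8) are shown to let the seeds (bases 2 to 8, in capitals) be compared.
rno-miR-290: uCUCAAACuaugggggca
rno-miR-292-5p: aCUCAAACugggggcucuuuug
rno-miR-291a-3p: aAAGUGCUuccacuuugugugcc
rno-miR-291a-5p: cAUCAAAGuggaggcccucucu
rno-miR-294: cUCAAAAUggaggcccuaucu
The seed is shared by rno-miR-290 and rno-miR-292-5p, while the other arms printed each have their own.

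Lipid synthesis genes stood higher. Of 28 cholesterol genes, 16 rose, 1 fell and 11 stayed uncalled, and of 32 fatty acid and lipid droplet genes, 13 rose, 4 fell and 15 stayed uncalled. Among them, 2 fell without T replicate 1 or 2 or 3. The other settings gave 3 to 7 falls. Summed cholesterol genes held 3834 to 4000 CPM in T, 6073 to 6643 in CPE and 6694 to 7104 in LPE. Summed fatty acid and lipid droplet genes held 4614 to 5092, 8081 to 9956 and 9284 to 9937 CPM, so both sums were above T in both serum-free media. Both regulator genes, Srebf1 and Srebf2, rose, 3.42-fold and 2.58-fold, as did Insig1, which retains their products in the endoplasmic reticulum (2.18-fold). Acly, which makes cytosolic acetyl-CoA, rose 2.72-fold, and malic enzyme (Me1) 2.89-fold. The desaturase genes Scd1, Scd2, Fads1 and Fads2 rose 3.42-fold, 2.37-fold, 2.64-fold and 2.84-fold. Among the falls, Dgat2, of triglyceride synthesis, fell 2.5-fold to 81.4 ± 12.4 CPM and the fatty acid binding protein gene Fabp3 2.23-fold to 475 ± 17.6 CPM.

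In central carbon metabolism both directions were found. Of 35 glycolysis and hypoxia genes, 9 rose, 11 fell and 15 stayed uncalled. Across the other settings there were 9 to 14 rises. The lactate dehydrogenase gene Ldha had 2419, 2561 and 2582 CPM in T and 898, 959 and 1167 in CPE, a fall of 2.5-fold, and the lactate exporter gene Slc16a3 fell 3.14-fold. Gapdh fell 1.6-fold and Pkm 1.49-fold, whereas Aldoa rose 3.8-fold, Pgam1 2.28-fold and the hexokinase gene Hk1 5.14-fold. Ndrg1, which responds to hypoxia and differentiation, had 2.73, 2.32 and 1.86 CPM in T, 93.8, 54.7 and 62.8 in CPE and 1.6, 0 and 0 in LPE. Citrate synthase (Cs) rose 6.14-fold from 83.5 ± 8.5 to 513 ± 88.1 CPM, while Idh3g, Sdhb and Sdhd of the same cycle fell 2.11-fold, 2.34-fold and 1.9-fold. Transketolase (Tkt) rose 2.51-fold. The amino acid transporter genes Slc38a2, Slc1a5 and Slc1a1 rose 4.35-fold, 3.89-fold and 12.8-fold, and Slc7a6 fell 1.93-fold.

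Of 38 tested genes of redox defence, 14 rose, 11 fell and 13 stayed uncalled, 65.8% called against 32.2% over all genes. Among the falls were the selenoenzyme genes Gpx1 and Gpx4 (2.22-fold and 3.95-fold, Gpx4 from 205, 198 and 179.9 CPM in T to 40.1, 54.96 and 52.2 in CPE), thioredoxin (Txn1, 2.05-fold) and the peroxiredoxin gene Prdx1 (2.01-fold). The rises included Gclc and Gclm of glutathione synthesis at 1.88-fold and 1.9-fold, the quinone reductase gene Nqo1 at 2.29-fold, the thioredoxin reductase gene Txnrd1 at 2.83-fold and Osgin1, which had 0.546, 0.579 and 0.465 CPM in T and 27.1, 17.9 and 16.4 in CPE. Prdx6 rose 4.93-fold, catalase (Cat) 2.72-fold and the glutathione transferase genes Gstm2 and Gstp1 4.88-fold and 4.03-fold. The ferritin genes Fth1 and Ftl1 rose 2.9-fold and 2.16-fold.

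Lysosomal genes rose in 13 and fell in 4 of 40 cases. With 1 library left out, 2 fell without T replicate 1 or 2 or 3 or CPE replicate 2 or 3. With other settings there were 2 to 6 falls. Ctsb, the cathepsin B gene, had 36.01, 33.6 and 41.4 CPM in T and 685, 539 and 461 in CPE, with LPE at 445 ± 81.7. Ctsl and Ctsz, also cysteine cathepsin genes, fell 3.49-fold and 2.44-fold, Ctsl from 2908, 2718 and 2817 CPM to 1077, 791 and 551. The cathepsins thus moved apart, and CPE did not overlap with T in any of these. Progranulin (Grn) had 6.55, 0 and 7.9 CPM in T and 196, 96.8 and 73.4 in CPE, and Asah1, Npc1 and Psap of lipid breakdown and export rose 2.66-fold, 3.53-fold and 2.35-fold. Of 17 proton pump subunit genes, 2 rose, 6 fell and 9 stayed uncalled, with Atp6v0b at 2.88-fold lower.

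Ribosomal protein, proteasome and chaperone genes fell more often than they rose in CPE. Of 79 cytosolic ribosomal protein genes, 6 rose, 51 fell and 22 stayed uncalled, with a median log2 fold change of -0.55. Their summed level was 73683 to 87580 CPM in the T libraries and 56907 to 58838 CPM in CPE, and these ranges did not overlap. LPE held 56227 to 59213 CPM, which overlapped with CPE. Rplp1, of the ribosomal stalk, had 1874, 1406 and 2039 CPM in T and 704, 612 and 654 in CPE, Rps20 fell 2.61-fold, Rpl12 2.36-fold and Rpsa 2.07-fold. The rises included those of Rpl8 (2.35-fold, from 48.6 ± 4.55 CPM), Rps28 (2.03-fold) and Rpl19 (1.61-fold). Ribosomal protein genes have many processed copies, and the share of reads that mapped to several places differed between the media as given above. Its part in these values was not tested.

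Mitochondrial ribosomal protein genes gave 2 rises and 20 falls among 66 tested (median -0.45), 33.3% called against 32.2% over all genes. In fits on fewer libraries, 1 rose without T replicate 1 or 2 or CPE replicate 2 or 3, and 12 fell without T replicate 3, and 13 fell without T replicate 1. The other settings gave 1 to 2 rises. Among those lower, Mrps11 fell 2.87-fold and Mrpl17 2.44-fold, and Mrps18b rose 2.87-fold. Subunits of the respiratory chain and ATP synthase followed with 6 rises and 25 falls of 71 (median -0.41). Leaving out a library, 3 rose without T replicate 2. Ndufs1, the largest subunit of complex I, had 269, 283 and 253 CPM in T, 36.3, 37.02 and 70.2 in CPE and 212, 235 and 280.1 in LPE. Uqcrb, of complex III, moved the opposite way, with 24.01, 20.8 and 18.6, 189, 134 and 164 and 53.7, 71.5 and 66.03 CPM. CPE overlapped with neither T nor LPE in either gene.

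For the proteasome, 3 rose, 18 fell and 14 stayed uncalled of 35 (median -0.49). The falls included those in the core subunit genes Psmb7 (1.97-fold) and Psmb6 (1.89-fold) and in genes of the cap such as Psmd8 (1.96-fold), and the rises in the cap subunit genes Psmd2 (1.91-fold), Psmd3 (1.79-fold) and Psmd14 (1.39-fold). Psmb10, of the immunoproteasome, had 36.6, 38.2 and 34.4 CPM in T and 3.83, 3.63 and 5.48 in CPE. Of 35 chaperone genes, 4 rose, 17 fell and 14 stayed uncalled (median -0.39). Of these members, 2 rose without T replicate 1 or 3. The chaperonin genes Cct5 and Cct3 fell 2.58-fold and 1.73-fold, the mitochondrial pair Hspd1 and Hspe1 1.69-fold and 1.95-fold, and Dnajb1 2.04-fold, while the Hsp90 activator gene Ahsa1 rose 1.98-fold. Within the endoplasmic reticulum, Hspa5 fell 1.5-fold, Canx 1.72-fold and Manf 2.47-fold, whereas Calr rose 1.68-fold, Pdia3 1.71-fold and Herpud1 5.27-fold.

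Translation factors had no common direction, with 12 rises and 16 falls among 63 (median 0.02). Eef1b2, an exchange factor subunit of elongation, had 1296, 1122 and 1148 CPM in T, 228, 256 and 234 in CPE and 790.5, 692 and 813 in LPE. The cap-binding protein gene Eif4e fell 1.95-fold, while Eef1d rose 2.91-fold and the kinase gene Eef2k 4.48-fold. Splicing factors gave 22 rises and 18 falls among 74. Among them, 9 fell without T replicate 3. Prpf8, at the core of the spliceosome, rose 3.72-fold to 1035 ± 78.5 CPM and Srsf5 3.21-fold, and Sf3b5 fell from 82.5 ± 1.84 to 16.2 ± 6.98 CPM.

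**Figure D4:**
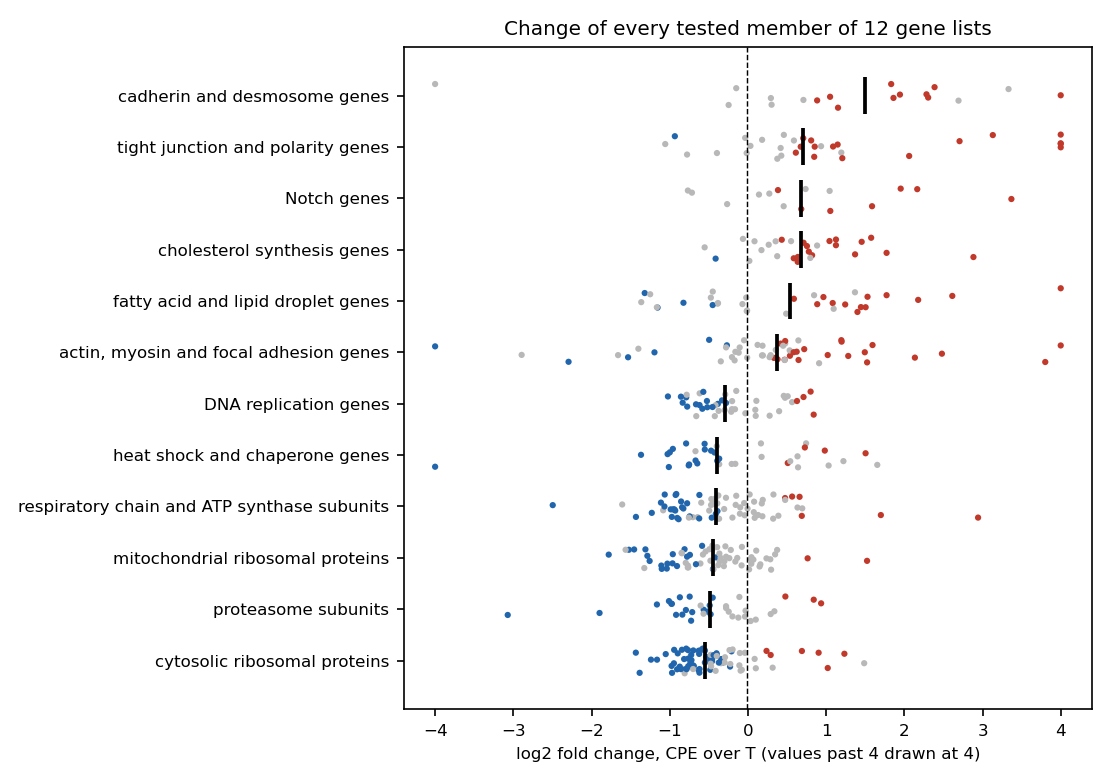
Log2 fold change of CPE over T for every tested member of 12 gene lists (points, red called higher, blue called lower, grey not called), with the list's median as a black line and the median of all genes as a dashed line (values past 4 in either direction are drawn at 4). The medians of the junction, Notch, lipid and actin lists lie right of the dashed line, and those of ribosomal proteins, proteasome, chaperone, respiratory chain and replication lists lie left of it.

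DNA replication genes gave 4 rises and 15 falls among 42 (median -0.29). With 1 library left out, 2 rose without T replicate 1 or 3 or CPE replicate 3, and 7 fell without T replicate 2, and 8 fell without CPE replicate 2. The ribonucleotide reductase gene Rrm1 fell 1.81-fold, Mcm2 1.44-fold and the clamp loader gene Rfc3 2.03-fold, and Mcm6 rose 1.64-fold. Cell cycle genes were split at 8 rises and 9 falls of 45, 37.8% called against 32.2% over all genes. In fits on fewer libraries, 5 rose without T replicate 2. Ccne1, cyclin E of the entry into S phase, fell 3.01-fold from 153 ± 8.48 CPM and E2f1 from 57.8, 59.6 and 43.2 to 9.44, 7.72 and 13.5 CPM. Ccnb1 and Bub1 of mitosis fell 1.77-fold and 1.94-fold, while Top2a rose 3.24-fold and Cdc20 1.71-fold. Cdk6 had 0.546, 0 and 0 CPM in T and 15.3, 7.95 and 33.5 in CPE, and it lost its call without CPE replicate 3 (adjusted p = 0.0598). The linker histone gene Hist1h1a fell from 186 ± 56.5 to 27.7 ± 6.46 CPM. Among 29 histone genes, 2 rose, 9 fell and 18 stayed uncalled, 37.9% called against 32.2% over all genes. Leaving out a library, 1 rose without T replicate 2. Across the other settings there were 1 to 2 rises.

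Surface and secreted proteins filled out the largest changes. Of 43 ion channel genes tested, 13 rose, 4 fell and 26 stayed uncalled, and 116 of 231 had 0 counts in every library. The epithelial calcium channel genes Trpv5 and Trpv6 had 0, 1.74 and 0 and 2.18, 1.16 and 0.465 CPM in T and 24.2, 44.7 and 21.3 and 38.04, 59.1 and 41.2 CPM in CPE. Cacna1d, a calcium channel gene, rose 6.34-fold and Clic6 4.86-fold, Clic6 to 127 ± 30.8 CPM against 8.03 ± 2.12 CPM in LPE. Stac2, a channel-associated adaptor gene, had 80.2, 64.05 and 56.4 CPM, Pgc 85.2, 65.4 and 75.1 CPM and Smpx, a small muscle protein gene, 32.1, 39.3 and 71.2 CPM in CPE, each with no count in any T or LPE library. Anxa8 fell from 78.03, 63.1 and 72.1 CPM in T to 5.01, 11.8 and 2.9 in CPE, with 152, 176 and 166 in LPE, and other annexin genes (Anxa5 and Anxa6) fell 2.3-fold and 2.47-fold. The interferon-induced membrane protein gene Ifitm1 had 109.7, 92.7 and 138, 28.02, 13.9 and 15.1 and 183, 168 and 148 CPM in T, CPE and LPE. In these annexin and interferon genes CPE was the lowest medium, and its libraries did not overlap with T.

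By size, the largest falls among genes with at least 30 CPM in T included secreted and signalling genes next to those above. Prg2, a granule protein gene, fell from 36.8 ± 1.94 to 1.14 ± 1.05 CPM, Prkg2, a cGMP-dependent kinase gene, from 44.8 ± 6.74 to 2.44 ± 2.16, and Prkar2b, a regulatory subunit of protein kinase A, from 42.4 ± 11.7 to 2.66 ± 2.34. B4galnt4, a glycosyltransferase gene, went from 59.01 ± 4.65 to 4.12 ± 1.8 CPM, Rcn3, a calcium-binding protein gene of the secretory pathway, from 84.5 ± 5.06 to 6.21 ± 5.84 and Slc26a10 from 134, 141 and 107 to 20.3, 3.86 and 0. LPE stood at 23.3 ± 3.17 CPM for B4galnt4, 19.4 ± 4.33 for Rcn3 and 119 ± 28.5 for Slc26a10. In all, 51 called genes with counts in T had 0 counts in every CPE library. In the other direction, 13 called genes with counts in CPE had 0 in every T library. CPE libraries detected fewer genes than T libraries although they held more counts, and the part of this in the 0 counts was not tested.

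CPE was also tested against LPE, the medium that shares its base and coating and has Lif in place of Chir99021. Over all 9130 genes 1651 were called (18.1%), and 216 of the 524 genes picked by the naming rule for CPE against T were called. The rule had chosen these 524 partly on the CPE libraries, which both comparisons share, so the last count is given as a description. Genes that stood apart from both other media without overlap, as given above, included Axin2, Lgr5, Wls, Igf2, Igf2r, H19, Gata2, Epcam, Cldn6, Nrp1 and Aqp8 with the highest level in CPE, and Fgf10, Socs3, Glul, Dnmt3b, Itga4, Vim and Ndufs1 with the lowest. Genes whose CPE level differed from T and not, by the test, from LPE included Eef2 (adjusted p = 0.19), Cnot1 (0.44), Ctsb (0.14), Ctnnb1 (0.42), Eif5a (0.81) and Rpsa (0.6), which does not show that both media act alike on them.

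**Figure D5:**
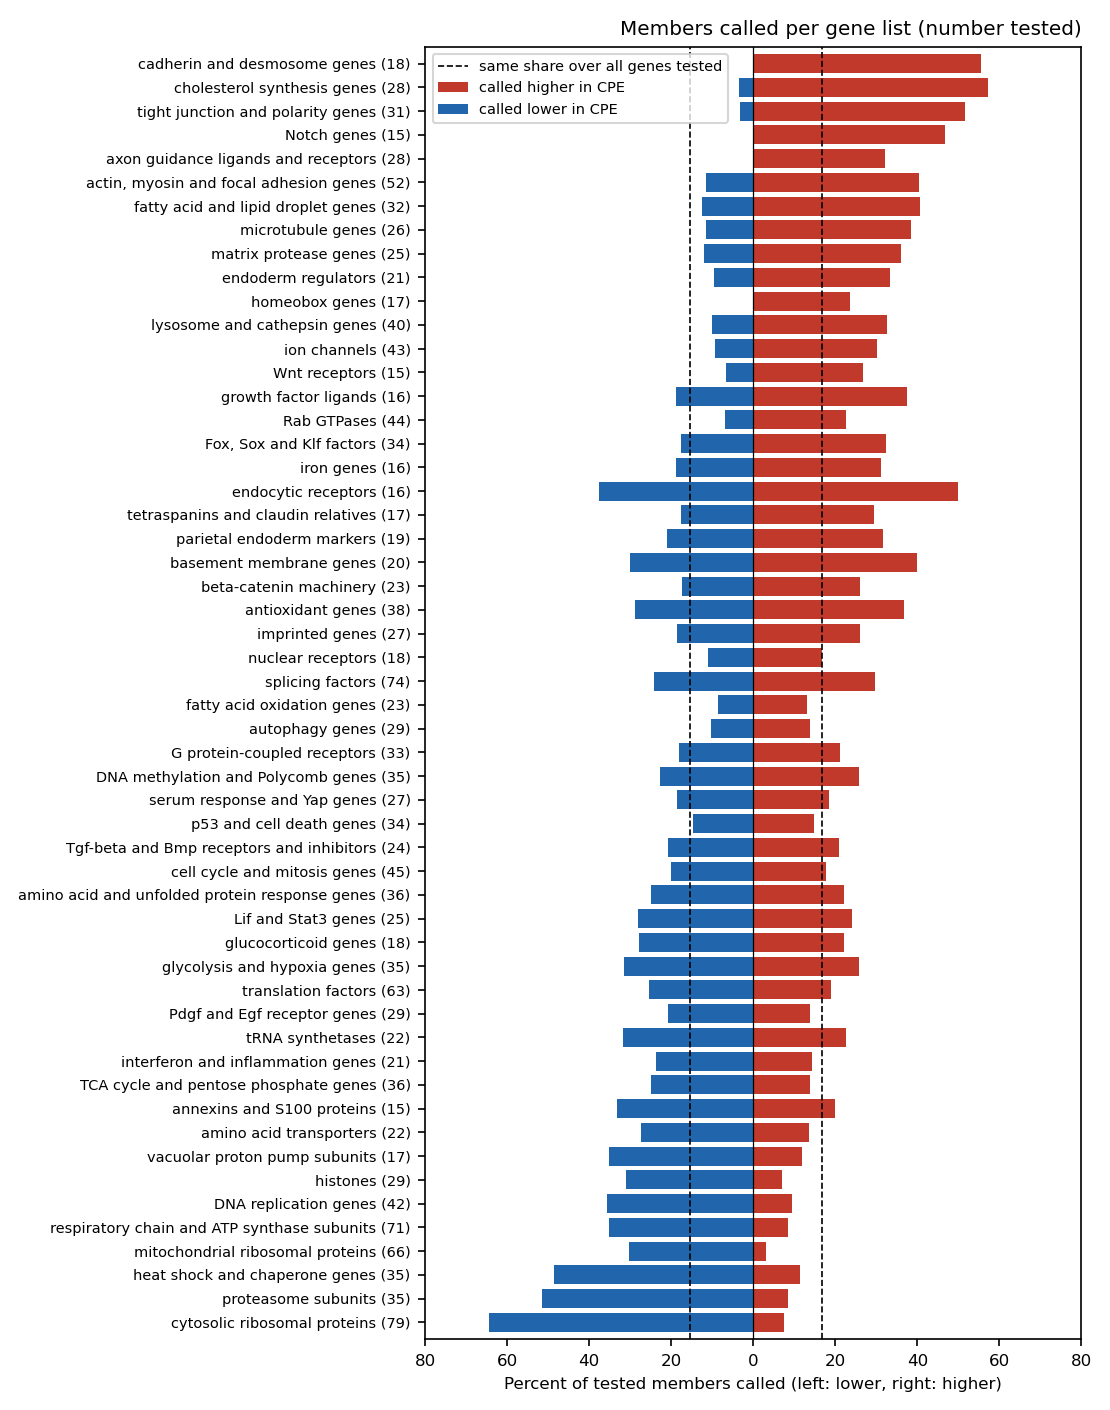
Share of the tested members of each list with at least 15 tested members that was called higher (red, right) or lower (blue, left) in CPE, with the number tested in parentheses and the shares over all genes (16.8% and 15.4%) as dashed lines. The cholesterol, cadherin and tight junction lists reach farthest on the right, and the cytosolic ribosomal proteins and proteasome subunits on the left.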

How the data were processed

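RNA-seq counts per gene came as 1 file per library. The authors deposited whole-number counts of uniquely mapped reads in columns by strand setting, and the fourth column was used after its 4 rows of unassigned reads had been dropped. The submitters' processing notes name CASAVA 1.8.2, Trimmomatic 0.33, STAR 2.5.1, DESeq2 and the build rn6. Groups came from the labels. Nothing in the labels says whether replicates were separate cultures, so the p-values rest on the variation among these libraries alone, and it may be technical.

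Genes passed edgeR's filterByExpr (minimum count 10, total 15), and TMM factors scaled the counts. edgeR 4.0.16 (R 4.3.3) fitted a robust quasi-likelihood model with a mean per medium over all 9 libraries, and p-values were adjusted by Benjamini-Hochberg over the 9130 genes. A gene was called at an adjusted p under 0.05, and SEs come from the F statistic. On simulated counts of 8707 genes for CPE against T, 32% of 2-fold and 68% of 4-fold changes were called, with 2 false among 102 calls. The simulation changed only 200 genes, gave LPE the same means as T and used a spread set by level alone. Its rates therefore need not hold for the data, where far more genes were called. Alternatives were other size factors (DESeq2 1.42.0 median ratios, upper quartile), filters, the DESeq2 test, limma 3.58.1 voom, 6 libraries, a replicate block, either-strand counts, thinned counts and each replicate left out.

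Members and lists were chosen with earlier results of these data known. Named genes were the 12 most abundant called genes changed at least 2-fold in each direction, the 12 largest rises and falls among called genes with at least 30 CPM, up to 4 rises and 4 falls per list with at least 5 CPM, all members of the pathway lists of the media with at least 5 CPM, and 13 fixed genes. Actn1, Actn4, Asah1, Bub1, Cacna1d, Calr, Canx, Cat, Ccnb1, Cct3, Cdc20, Clcn5, Cldn6, Clic6, Ctnna1, Ctnnd1, Cubn, Diaph1, Dnmt1, Esrp2, Ezh2, Fads1, Fads2, Fat1, Gab1, Gapdh, Gclc, Gclm, Gsn, Hspa5, Hspd1, Hspe1, Insig1, Kitlg, Klf11, Lama1, Mcm2, Me1, Mest, Mir290, Mir291a, Mir291b, Mir292, Mir294, Mllt4, Mrpl17, Npc1, Nqo1, Ocln, P4ha1, Pard3, Pdia3, Pgam1, Pkm, Psap, Psmb6, Psmb7, Psmd8, Rac1, Robo1, Robo2, Scd2, Sdhd, Srebf2, St14, Syt9, Timp3, Tjp1, Tnfrsf19, Tuba1a, Txnrd1, Vegfa, Zic1 and Zyx were added after their values had been seen. Transcript length and GC content were not analysed here. Some genes that meet the rule are not reported here.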

Additional observations from a re-analysis of the deposited data

How the results depend on the processing

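The main fit called 2939 genes between CPE and T, and fits with 1 library left out called 2129 to 2598. These were 1142 to 1326 higher and 977 to 1272 lower. Of the 2939 genes, 2125 to 2443 were called again in such fits. At 2-fold or more these fits called 762 to 875 higher and 482 to 629 lower, and 189 to 203 of the named genes between CPE and LPE. Other settings that held LPE called 175 (voom) to 226 (DESeq2 test) of these named genes, against 216 in the main fit. The main fit took its spread per gene from all 9 libraries, although replicates varied less in T than in CPE or LPE. The other settings run called 2934 (DESeq2 median-ratio factors), 2945 (upper quartile), 2853 (no filter), 2894 (stricter filter), 3122 (DESeq2 test), 3917 (voom), 3682 (6 libraries), 2908 (either strand) and 2789 (thinned). None of these moved a count of calls by more than 1.5 times. Of 813 called genes in the lists or the naming rule, 585 were called in all 6 fits with a library left out and 720 in all other settings run on them. Replicate numbers gave no sign of pairing. The deviations of same-numbered T and CPE libraries correlated at 0.00159, -0.0249 and -0.0266, and those of different-numbered ones at -0.0038 to 0.0333. The T replicates varied by only 1.35 to 2.05 times the sampling variance, so this check could miss a pairing. With the replicate block 2777 genes were called. Of the genes under 5 CPM, 3.85% were called, and the part of the lower depth of T in this share was not tested.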
